A study of Solanum lycopersicum with 10 samples.

Results

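The 8 genes described here code for enzymes of starch synthesis and breakdown in tomato (Solanum lycopersicum), or for a fructokinase that feeds synthesis (FRK2). They were chosen by their Solyc identifiers, with the names AGPL1, AGPL2, AGPL3, AGPS1, GBSS1 and FRK2 and a pair of beta-amylases that go by their identifiers. The rule of choice used no measured value, but earlier results of these data were known when it was made. All 8 were found among the 35288 genes of the deposited tables, and all 8 passed the filter on low counts, as did 22801 genes in all. The study sequenced poly(A) RNA of wild-type tomato cv. Ailsa Craig (AC, spelled Alisa Craig in the labels) from 5 tissues, without transgene or treatment. Fruits were taken when mature green, 30 days after anthesis, and when red ripe, 7 days after the breaker stage at which the colour turns, and were separated into exocarp, the skin, and mesocarp, the flesh beneath it. Leaves, described in the study's methods as a pool of both stages, were the fifth tissue. There were 2 biological replicates of each tissue and thus 10 libraries.

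Starch is built from ADP-glucose, which ADP-glucose pyrophosphorylase (AGPase) makes from glucose 1-phosphate and ATP. In plants this enzyme is assembled from large subunits, coded here by AGPL1, AGPL2 and AGPL3, and small subunits, coded here by AGPS1. Granule-bound starch synthase, coded by GBSS1, extends the amylose chains inside the granule, and beta-amylases release maltose from the ends of the chains. Fructokinase, coded by FRK2, phosphorylates the fructose that is left when sucrose is cleaved and so feeds the hexose phosphates from which starch is made. Tomato fruits store starch while they grow and turn it into soluble sugars as they ripen, whereas leaves build starch in the light and use it in the dark.

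Total counts per library lay between 30945619 and 45637676. Levels are given in FPKM, the authors' values per length of transcript and per library size, so that the unit allows genes to be compared with each other. Differences between tissues were tested on the counts with edgeR's quasi-likelihood test in a single model of all 10 libraries, scaled by TMM, and are given as log2 differences (log2 fold changes), that is log2 ratios of TMM-scaled CPM (counts relative to library size), with their standard error (SE). Adjustment followed Benjamini and Hochberg across all 22801 tested genes, and a gene was called where its adjusted p-value was under 0.05. The p-values rest on the spread between the 2 libraries of a tissue, pooled for each gene over all tissues in the model. A gene's spread in a tissue thus also enters the tests between other tissues. The model also draws each gene's spread toward that of all genes, so the p-values do not rest on the gene's own libraries alone. Green exocarp replicates were the least alike, with 417 of 11630 genes at 10 CPM or more lying at least 2-fold apart, against 3 to 79 genes in the other tissues. Of the 12 genes that the study itself picked on these libraries as exocarp preferential, 12 had a higher FPKM in every exocarp library than in any other library, and their summed FPKM ranged from 8025 to 8771 in green exocarp, from 1181 to 1865 in red exocarp, from 230.4 to 238.6 in green mesocarp, from 21.0 to 26.9 in red mesocarp and from 45.2 to 48.7 in leaves. A single gene, PR10, makes up most of these sums, and without it they ranged from 502 to 564 in green exocarp, from 152 to 173 in red exocarp, from 13.1 to 15.8 in green mesocarp, from 3.84 to 4.10 in red mesocarp and from 12.5 to 13.3 in leaves. Since the 12 genes were picked on these libraries, they are no independent check of the exocarp labels. The sources used here pair no identifier with a mesocarp or leaf marker, so those labels were not checked either. These are bulk tissues, in which fewer cells of a type and less RNA per cell cannot be told apart.

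By FPKM, which was not scaled by TMM, the 8 genes together were most abundant in leaves and in green mesocarp. Their summed FPKM was 909 and 889 in the leaf libraries, 883 and 872 in green mesocarp, 673 and 639.6 in green exocarp, 178 and 174 in the same tissue of red fruits and 111 and 108 in red mesocarp. TMM factors were 0.907 and 0.905 in leaves and 1.21 and 1.21 in green mesocarp. With TMM scaling leaves thus stand further over green mesocarp than these sums show. The highest of the 8 differed between tissues. It was AGPS1 in green mesocarp, GBSS1 in leaves and FRK2 in green exocarp and in both red tissues.

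**Figure D1:**
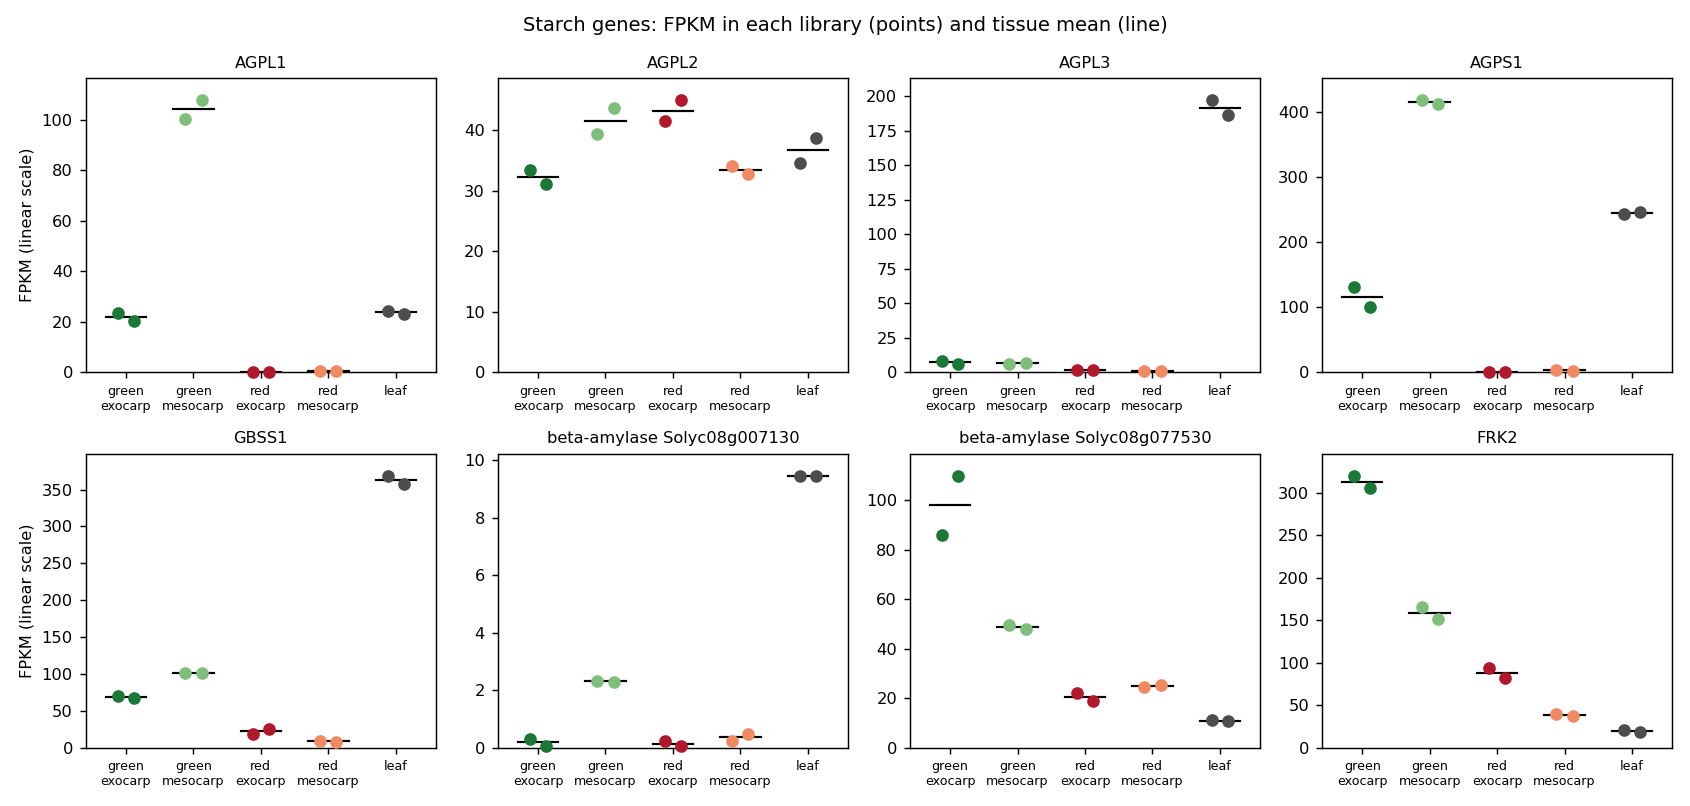
FPKM of the 8 genes on a linear axis from 0, with a panel per gene, a point per library and a line at the mean of the 2 libraries of each tissue. AGPL1 and AGPS1 peaked in green mesocarp and lay near 0 in red fruits, AGPL3, GBSS1 and beta-amylase Solyc08g007130 peaked in leaves, beta-amylase Solyc08g077530 and FRK2 peaked in green exocarp, and AGPL2 lay between 31.2 and 45.0 FPKM in every library.

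AGPL1 (Solyc01g109790.3), a large subunit of AGPase, was the gene with the widest range. Its FPKM was 100.4 and 107.8 in the green mesocarp libraries, 23.5 and 20.4 in green exocarp, 24.0 and 23.2 in leaves, 0.522 and 0.443 in red mesocarp and 0.0929 and 0 in red exocarp. Green mesocarp stood over every other tissue, and the red libraries lay far under all others without overlap. The level in green mesocarp was over that in leaves by a log2 difference of 1.71 (SE 0.20, adjusted p = 8.88e-05 from edgeR), whereas leaves and green exocarp, next in the order, differed by 0.42 (SE 0.20), which did not pass (adjusted p = 0.0885). The latter step, as green exocarp over leaves, passed with DESeq2 (-0.53, adjusted p = 7.29e-06), with its size factors in edgeR (adjusted p = 0.039), with only the compared tissues in the fit (adjusted p = 0.00645) and without green exocarp replicate 1 (adjusted p = 0.0302). Between green and red mesocarp AGPL1 changed by -7.29 on the log2 scale (SE 0.28, adjusted p = 1.86e-07). The fitted log2 difference of red over green exocarp was -8.49 (SE 0.37, adjusted p = 2.84e-07) and became -7.46 without red exocarp replicate 2. Its red exocarp level rests on 9 counts in replicate 1 and none in replicate 2. Mean CPM in green exocarp was 181-fold over red exocarp replicate 1, and at least 568-fold over the 3 counts that bound replicate 2. Red mesocarp, with 60 and 39 counts, was likewise 4.99-fold over red exocarp replicate 1 and at least 15.7-fold over the bound of replicate 2.

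AGPS1 (Solyc07g056140.3), the small subunit, was arranged much like AGPL1 and reached the highest level of the 8 genes. Its FPKM was 418 and 411 in green mesocarp, 243 and 245 in leaves, 131 and 99.5 in green exocarp, 2.75 and 2.06 in red mesocarp and 0.637 and 0.444 in red exocarp. Sorted by mean FPKM, AGPS1 took place 127 of 35288 in green mesocarp and place 16923 in red exocarp. The red libraries again lay far under all others, and in red exocarp the counts were 51 and 38. Green mesocarp and leaves differed by a log2 difference of 0.33 (SE 0.15), which did not pass (adjusted p = 0.0824 from edgeR) although their libraries did not overlap. It passed under other settings, at 0.75 with total counts (adjusted p = 0.00286) and 0.36 with only the compared tissues in the fit (SE 0.036, adjusted p = 9.72e-06). It also passed with limma, at 0.76 on log2(FPKM + 1) (adjusted p = 0.00139) and 0.76 on log2(FPKM + 0.1) (adjusted p = 0.00733). Each further step in the order passed, from leaves to green exocarp by 1.39 (SE 0.16, adjusted p = 6.14e-05), from green exocarp to red mesocarp by 5.26 (SE 0.19, adjusted p = 9.26e-08) and from red mesocarp to red exocarp by 2.14 (SE 0.22, adjusted p = 0.000155). From green to red, AGPS1 changed by -6.99 on the log2 scale in mesocarp (SE 0.20, adjusted p = 6.02e-08) and by -7.40 in exocarp (SE 0.22, adjusted p = 4.7e-08).

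AGPL3 (Solyc01g079790.4), another large subunit, was a gene of the leaf libraries. Its FPKM was 197 and 186 in leaves, 8.24 and 5.86 in green exocarp, 6.18 and 6.27 in green mesocarp, 1.12 and 1.22 in red exocarp and 0.804 and 0.822 in red mesocarp. Leaves stood over every fruit library. The log2 difference of leaves over green exocarp, the next tissue, was 5.08 (SE 0.14, adjusted p = 3.97e-08 from edgeR). Green exocarp and green mesocarp differed by 0.29 (SE 0.13), which did not pass (adjusted p = 0.114) except without green exocarp replicate 2 (0.49), and green mesocarp was over red exocarp by 1.96 (SE 0.15, adjusted p = 6.65e-06). The gene thus fell from green to red in both fruit tissues, with log2 differences of -2.26 in exocarp (SE 0.15, adjusted p = 2.79e-06) and -2.51 in mesocarp (SE 0.16, adjusted p = 2.54e-06).

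AGPL2 (Solyc07g019440.3), the remaining large subunit, varied least among the 8 genes. Its FPKM was 33.5 and 31.2 in green exocarp, 39.4 and 43.7 in green mesocarp, 41.5 and 45.0 in red exocarp, 34.0 and 32.8 in red mesocarp and 34.6 and 38.7 in leaves. The highest tissue mean was 1.34 times the lowest in FPKM and 1.67 times the lowest in TMM-scaled CPM, and in FPKM the libraries of green mesocarp overlapped with those of red exocarp and the libraries of red mesocarp with those of green exocarp. In CPM the order was red exocarp, leaves, red mesocarp, green mesocarp and green exocarp, in which only the step from red exocarp to leaves passed, with a log2 difference of 0.25 (SE 0.09, adjusted p = 0.028 from edgeR). The step from green mesocarp to green exocarp did not pass (adjusted p = 0.0603) but did, as green exocarp over green mesocarp, with DESeq2 (-0.27), with its size factors (-0.27, adjusted p = 0.046), with total counts (-0.36, adjusted p = 0.0122) and with limma on FPKM at both pseudocounts. Red mesocarp over leaves, -0.14 (adjusted p = 0.177), likewise passed with DESeq2 (-0.27, adjusted p = 0.0171) and with its size factors (-0.27, adjusted p = 0.0212). The step from red exocarp to leaves was lost with DESeq2 (0.10, adjusted p = 0.409), with its size factors (0.10, adjusted p = 0.343) and with only the compared tissues in the fit (0.18, adjusted p = 0.0953). It was lost, too, without leaf replicate 1 (0.18) and without red exocarp replicate 2 (0.22). The lower level in green mesocarp than in leaves, at -0.25 (SE 0.09, adjusted p = 0.034), turned to 0.17 (adjusted p = 0.119) under scaling by total counts, a scaling under which the median of all genes in that comparison was at 0.32 in place of -0.07. It was also lost without leaf replicate 2 (-0.14, adjusted p = 0.287) and without green mesocarp replicate 1 (-0.14, adjusted p = 0.274). The rise from green to red exocarp, by 0.74 (SE 0.09, adjusted p = 0.000103), was the largest change of AGPL2 between any tissues and passed under every scaling tried, at 0.70 with DESeq2's size factors and 0.42 with total counts.

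The shares of the large subunits in the summed AGPL1, AGPL2 and AGPL3 FPKM differed between tissues, which is given here without a test. AGPL1 made up 68.8% and 68.3% of the sum in the green mesocarp libraries and 36.0% and 35.6% in green exocarp, against 9.39% and 9.35% in leaves. AGPL3 made up 77.1% and 75.1% in leaves and at most 12.6% in any fruit library. In red fruits nearly all of the sum was AGPL2, with 97.3% ± 0.130 (SD, n = 2) in exocarp and 96.3% ± 0.0228 (SD, n = 2) in mesocarp. In green exocarp AGPL2 was also the largest share, at 52.8% ± 2.04 (SD, n = 2). The leading large subunit was therefore AGPL1 in green mesocarp, AGPL3 in leaves and AGPL2 in the other tissues, and it was the same in both libraries of each tissue.

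The sum of the large subunits over the small subunit also shifted. The ratio of AGPL FPKM to AGPS1 FPKM was 1.05 and 1.01 in leaves, 0.349 and 0.384 in green mesocarp and 0.497 and 0.577 in green exocarp. In red mesocarp it was 12.8 and 16.5, and in red exocarp 67.1 and 103.9. AGPS1 transcripts thus exceeded those of the listed large subunits in green fruits and were far fewer in red fruits, where AGPL2 stayed and AGPS1 lay at 2.75 FPKM or less. Other AGPase genes were not analysed here, and the 3 AGPL genes are paralogs whose shared reads, if any, were assigned in a way not given in the sources used here.

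**Figure D2:**
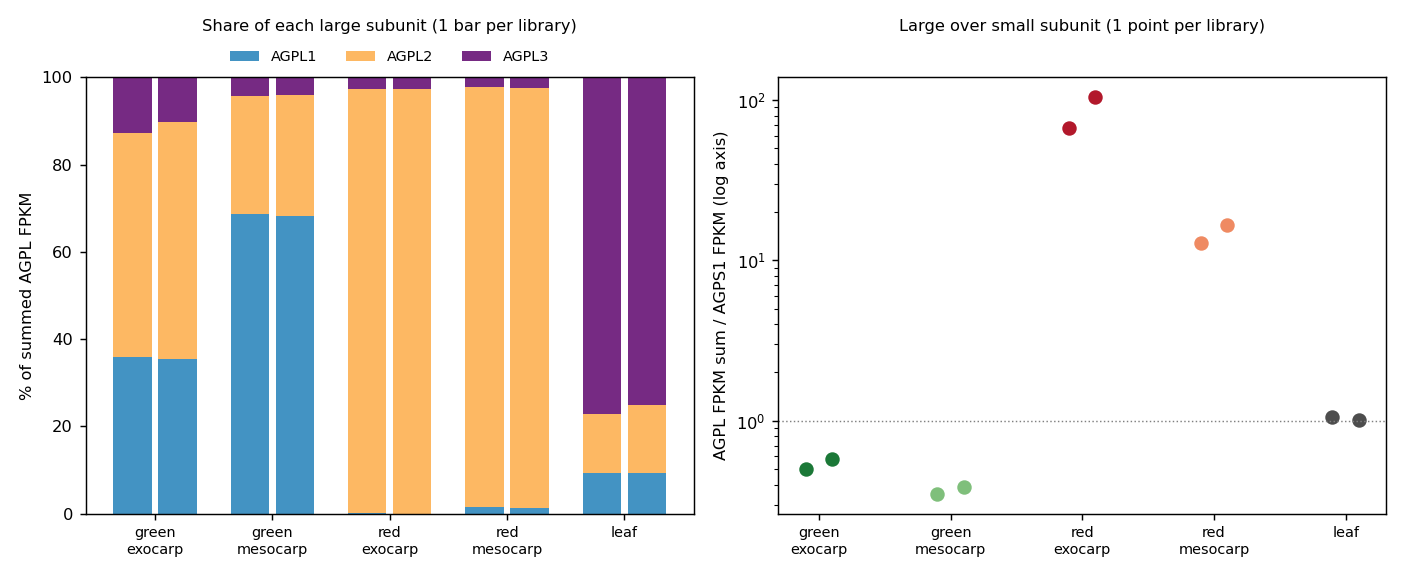
Left, the share of AGPL1, AGPL2 and AGPL3 in their summed FPKM, with a bar for each of the 10 libraries. Right, the summed AGPL FPKM divided by the AGPS1 FPKM on a log axis, with a point per library and a dotted line at 1. AGPL1 led in green mesocarp, AGPL3 in leaves and AGPL2 in the other tissues, and the ratio ran from 0.349 in a green mesocarp library to 103.9 in a red exocarp library.

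GBSS1 (Solyc08g083320.4), the amylose synthase of the granule, was highest in leaves and lowest in red mesocarp. Its FPKM was 368 and 357 in leaves, 101.5 and 100.9 in green mesocarp, 70.6 and 66.8 in green exocarp, 18.4 and 25.8 in the same tissue of red fruits and 8.75 and 8.21 in red mesocarp. No libraries of different tissues overlapped, and every step in this order passed. The log2 difference was 2.27 from green mesocarp to leaves (SE 0.15, adjusted p = 2.29e-06 from edgeR) and 1.31 from red to green exocarp (SE 0.14, adjusted p = 6.07e-05). Between the green tissues it was 0.44 in favour of mesocarp (SE 0.14, adjusted p = 0.0386), a step that was lost when any of the 4 green libraries was left out, with values from 0.43 to 0.45 and adjusted p-values from 0.0579 to 0.133. In red fruits the order of exocarp and mesocarp was the other way round, with exocarp higher by 1.40 (SE 0.15, adjusted p = 0.000162). From green to red, GBSS1 changed by -3.15 on the log2 scale in mesocarp (SE 0.15, adjusted p = 5.97e-07), against -1.31 in exocarp.

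The beta-amylases differed most in the places of leaves and green exocarp, while green mesocarp came next to the top for both. Beta-amylase Solyc08g077530.3 had an FPKM of 86.1 and 109.8 in green exocarp, 49.5 and 47.8 in green mesocarp, 24.6 and 25.5 in the same tissue of red fruits, 22.1 and 19.0 in red exocarp and 11.0 and 10.7 in leaves. Green exocarp was highest and leaves were lowest, without overlap between neighbouring tissues. It was higher in green exocarp than in green mesocarp by a log2 difference of 1.13 (SE 0.13, adjusted p = 0.000232 from edgeR), and higher in each fruit tissue than in leaves, by between 0.94 in red exocarp (adjusted p = 0.000193) and 2.87 in green exocarp (adjusted p = 3.87e-07). Red mesocarp and red exocarp differed by 0.27 (SE 0.13), which did not pass (adjusted p = 0.134) except with only the compared tissues in the fit. It was lower in red than in green fruits, at log2 differences of -1.93 in exocarp (SE 0.13, adjusted p = 3.02e-06) and -0.53 in mesocarp (SE 0.13, adjusted p = 0.00607).

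Beta-amylase Solyc08g007130.4 was a weakly expressed gene with its highest level in leaves. Its FPKM was 9.45 and 9.44 in leaves, 2.34 and 2.30 in green mesocarp, 0.245 and 0.474 in the same tissue of red fruits, 0.320 and 0.0578 in green exocarp and 0.232 and 0.0482 in red exocarp. The leaf counts were 678 and 645, while the exocarp libraries held between 4 and 26 counts, and the exocarp replicates lay 5.02-fold apart in CPM at the green stage and 4.98-fold apart at the red stage. Leaves were over green mesocarp by a log2 difference of 2.45 (SE 0.52, adjusted p = 0.00291 from edgeR) and green over red mesocarp by 2.28 (SE 0.58, adjusted p = 0.00892), which became 1.87 (adjusted p = 0.0794) without red mesocarp replicate 1. The lower steps did not pass, with libraries that overlapped between red mesocarp and green exocarp (adjusted p = 0.175) and between green and red exocarp (adjusted p = 0.95). Green exocarp was at -3.44 on the log2 scale relative to green mesocarp (SE 0.63, adjusted p = 0.00346), at -5.01 without green exocarp replicate 1 and at -2.72 without replicate 2. Against leaves, green exocarp was at -5.90 (SE 0.65, adjusted p = 5.57e-05), at -7.46 without its replicate 1 and at -5.15 without replicate 2. Red exocarp against leaves was at -6.02 (SE 0.67, adjusted p = 4.79e-05), at -7.52 without its replicate 1 and at -5.23 without replicate 2. In the summed FPKM of the pair, Solyc08g077530 made up 53.4% ± 0.507 (SD, n = 2) in leaves and between 95.5% ± 0.0544 in green mesocarp and 99.8% ± 0.224 in green exocarp in the fruit.

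FRK2 (Solyc06g073190.3), the fructokinase, was a fruit gene with its peak in the green skin. Its FPKM was 320 and 306 in green exocarp, 165.5 and 151.5 in green mesocarp, 93.5 and 82.1 in red exocarp, 39.3 and 37.4 in red mesocarp and 21.1 and 18.1 in leaves. No libraries of different tissues overlapped, and all 4 steps of the order passed, the narrowest being green mesocarp over red exocarp with a log2 difference of 0.41 (SE 0.10, adjusted p = 0.00504 from edgeR). FRK2 was higher in exocarp than in mesocarp by similar log2 differences at both stages, 1.10 in green fruits (SE 0.10, adjusted p = 6.4e-05) and 1.21 in red fruits (SE 0.10, adjusted p = 4.2e-05). From green to red FRK2 changed by -1.51 on the log2 scale in exocarp (SE 0.10, adjusted p = 2.45e-06) and by -1.62 in mesocarp (SE 0.10, adjusted p = 2.12e-06). It was the only gene of the 8 besides beta-amylase Solyc08g077530 that was higher in all 4 fruit tissues than in leaves, by between 0.96 in red mesocarp (adjusted p = 2.86e-05) and 3.69 in green exocarp (adjusted p = 4.68e-08).

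The comparison of red ripe with mature green fruits asks how the genes stood before and after ripening. In mesocarp, 7 of the 8 genes were lower in red fruits and none was higher, and 31.8% of all genes tested were lower and 28.2% higher. The gene that did not pass was AGPL2, with a log2 difference of 0.11 (SE 0.09, adjusted p = 0.322 from edgeR). In exocarp, 6 of the 8 genes were lower and 1, AGPL2, was higher in red fruits, while 32.2% of all genes tested were lower and 29.7% higher. The median log2 difference of the 8 genes was -2.39 in mesocarp and -1.72 in exocarp, against -0.02 and 0 over all genes tested. The called values in mesocarp ranged from -0.53 for beta-amylase Solyc08g077530 to -7.29 for AGPL1, and AGPL1 and AGPS1 fell most in each tissue. Scaling by total counts moved the median of all genes to -0.41 in mesocarp and -0.28 in exocarp and left 27.8% and 33.8% of all calls higher in red fruits, in place of 47.0% and 48.0%. Under it AGPL2 was lower in red mesocarp, at -0.28 (adjusted p = 0.0219), which is still above that median.

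**Figure D3:**
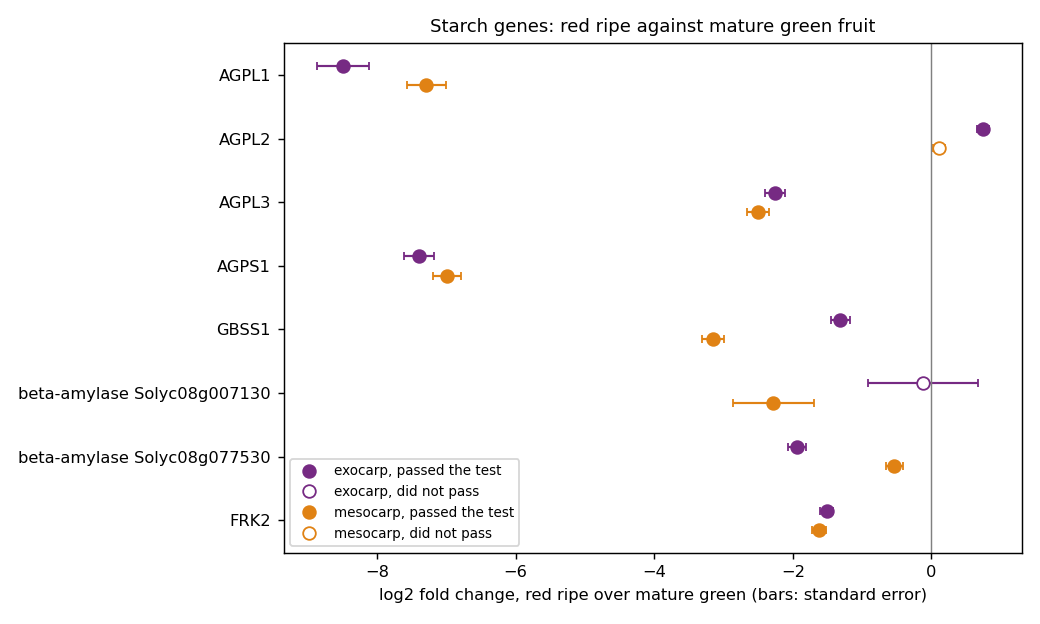
Log2 fold change of each gene in red ripe over mature green exocarp (purple) and mesocarp (orange), with standard errors as bars, filled points where the adjusted p-value was under 0.05 and open points where it was not. AGPL1 and AGPS1 lay between -8.49 and -6.99 in both tissues, AGPL2 at 0.74 and 0.11, and the other genes between -3.15 and -0.12.

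The comparison of exocarp with mesocarp, on which the study was built, divided the genes. In mature green fruits 2 of the 8 genes, FRK2 and beta-amylase Solyc08g077530, were higher in exocarp and 4, AGPL1, AGPS1, GBSS1 and beta-amylase Solyc08g007130, were lower, against 17.3% higher and 19.0% lower among all genes tested. AGPL1 was at -2.13 in green exocarp relative to green mesocarp (SE 0.20, adjusted p = 9.9e-05 from edgeR) and AGPS1 at -1.73 (SE 0.16, adjusted p = 7.73e-05). At the red ripe stage 4 genes, FRK2, GBSS1, AGPL2 and AGPL3, were higher in exocarp and 2, AGPL1 and AGPS1, were lower, against 18.1% higher and 19.4% lower among all genes. The red differences of AGPL2, 0.39 (SE 0.09, adjusted p = 0.00864), and AGPL3, 0.55 (SE 0.18, adjusted p = 0.0416), were small. That of AGPL3 did not pass with total counts (0.50, adjusted p = 0.0733) or with only the compared tissues in the fit (0.55, adjusted p = 0.139). Nor did it pass with limma on log2(FPKM + 1) (0.26, adjusted p = 0.192) or on log2(FPKM + 0.1) (0.48, adjusted p = 0.0525). That of AGPL2 was lost without red exocarp replicate 2 (0.32, adjusted p = 0.056) or red mesocarp replicate 2 (0.35, adjusted p = 0.0675), and that of AGPL3 without any of the 4 red libraries (from 0.48 to 0.60, adjusted p from 0.0803 to 0.166). The red value of AGPL1, -3.33 (SE 0.55, adjusted p = 0.00189), became -2.32 (adjusted p = 0.000761) without red exocarp replicate 2, and without replicate 1 only the library at 0 counts is left, for which the bound is given above. The median log2 difference of the 8 genes was -0.34 in green fruits and 0.06 in red fruits, against 0 over all genes tested at each stage. Scaling by total counts moved the green median of all genes to -0.11 and left 36.5% of all green calls higher in exocarp, in place of 47.8%.

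**Figure D4:**
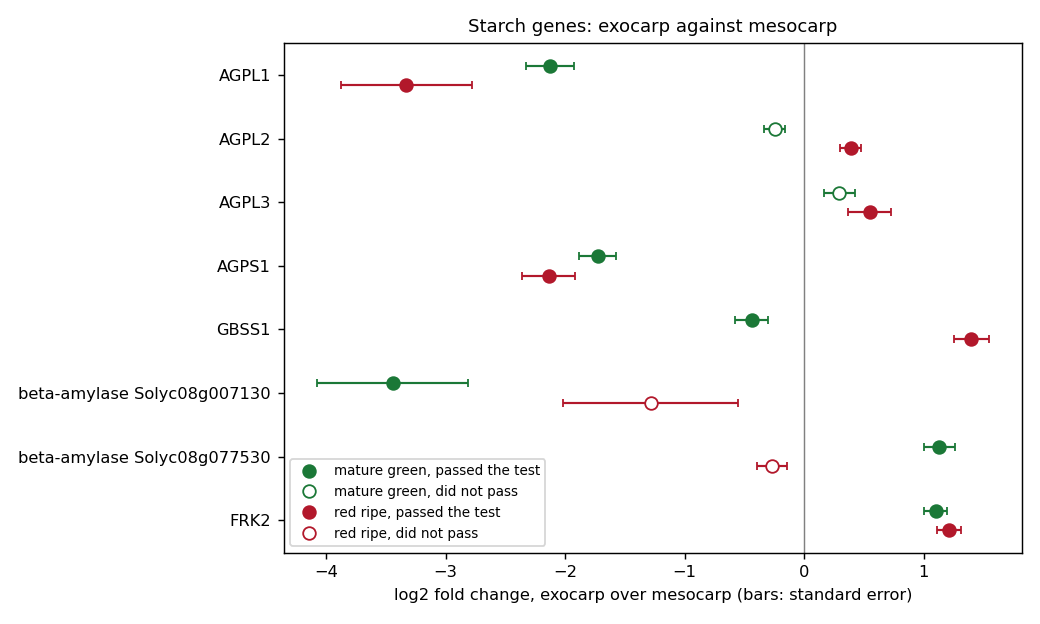
Log2 fold change of each gene in exocarp over mesocarp at the mature green (green) and red ripe (red) stage, with standard errors as bars, filled points where the adjusted p-value was under 0.05 and open points where it was not. FRK2 lay at 1.10 and 1.21 and AGPS1 at -1.73 and -2.14, while GBSS1 went from -0.44 to 1.40 and beta-amylase Solyc08g077530 from 1.13 to -0.27.

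Whether the exocarp-to-mesocarp difference changed between the stages was tested in the same model. It changed for 3 of the 8 genes, with 2 more toward exocarp in red fruits and 1 more toward mesocarp, against 10.9% and 10.5% of all genes tested. For GBSS1 the exocarp-to-mesocarp value was higher in red fruits by 1.84 (SE 0.20, adjusted p = 0.00057 from edgeR), and for AGPL2 by 0.64 (SE 0.12, adjusted p = 0.00849). For beta-amylase Solyc08g077530 it moved the other way, by -1.40 (SE 0.18, adjusted p = 0.00116). The same values are the differences between exocarp and mesocarp in the change from green to red. The other 5 genes did not pass, with adjusted p-values of 0.246 for AGPL1, 0.346 for AGPS1, 0.492 for AGPL3, 0.659 for FRK2 and 0.172 for beta-amylase Solyc08g007130, and their differences were -1.20 (SE 0.66), -0.41 (SE 0.27), 0.25 (SE 0.22), 0.11 (SE 0.14) and 2.16 (SE 1.00). Without green exocarp replicate 1 the count was 5, with AGPL3 at 0.49 (adjusted p = 0.0407) and beta-amylase Solyc08g007130 at 3.73 (adjusted p = 0.0216) added. The value of AGPL1 was -0.19 without red exocarp replicate 2, and without replicate 1, where only the library at 0 counts is left, the fitted -6.51 (adjusted p = 0.00313) depends on the prior count and is no bound. That of beta-amylase Solyc08g007130 was 0.62 without red exocarp replicate 1.

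Against leaves, which make starch by day, the fruit tissues were compared with the same 2 leaf libraries, so the 4 comparisons are not independent of each other. The study's methods do not give the hour at which leaves or fruits were taken. In green mesocarp 3 genes were higher than in leaves, AGPL1, beta-amylase Solyc08g077530 and FRK2, and 4 were lower, against 32.7% and 35.8% of all genes tested. In green exocarp 2 were higher and 5 lower, against 34.6% and 36.4%. In red exocarp 3 were higher and 5 lower, against 35.7% and 40.2%, and in red mesocarp 2 were higher and 5 lower, against 35.0% and 41.6%. The median log2 difference of the 8 genes over leaves was 0.04 in green mesocarp, -0.94 in green exocarp, -5.02 in red exocarp and -5.08 in red mesocarp, where the medians over all genes tested lay at -0.07, -0.02, -0.11 and -0.18. Scaling by total counts moved the median of all genes to 0.32 in green mesocarp and 0.24 in green exocarp, DESeq2's size factors moved it to -0.13 in green exocarp, -0.26 in red exocarp and -0.31 in red mesocarp, and total counts left 61.9% of all green mesocarp calls higher than in leaves in place of 47.8%. AGPL2 alone among the 8 genes was lower than in leaves in both green tissues and higher in red exocarp. Besides the changes given above, its value in green exocarp, -0.49 (SE 0.09, adjusted p = 0.00108 from edgeR), did not pass with total counts (-0.20, adjusted p = 0.0768). Nor did that value pass with limma on log2(FPKM + 1) (-0.17, adjusted p = 0.0891) or on log2(FPKM + 0.1) (-0.18, adjusted p = 0.0893). Among the genes of synthesis, AGPL3 and GBSS1 lay under leaves in all 4 fruit tissues, AGPL3 at log2 differences between -5.08 and -7.88 and GBSS1 between -2.27 and -5.42. Relative to leaves AGPS1 was at -8.79 in red exocarp (SE 0.23, adjusted p = 1.3e-08 from edgeR) and at -6.66 in red mesocarp (SE 0.20, adjusted p = 2.4e-08). AGPL1 was at -5.58 in red mesocarp (SE 0.27, adjusted p = 2.65e-07). Its value for red exocarp, -8.91, became -7.86 without red exocarp replicate 2, and leaves were at least 759-fold over the 3 counts that bound that library.

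The likeness of the patterns was described by Pearson's r of log2 CPM over the 10 libraries, which are pairs of replicates from 5 tissues, and by the rank of each gene among the 22800 other genes tested. AGPS1 ranked 27 in likeness to AGPL1, with r = 0.98, and AGPL1 ranked 71 in likeness to AGPS1. AGPL3 ranked 350 in likeness to GBSS1 (r = 0.95), and FRK2 ranked 302 in likeness to beta-amylase Solyc08g077530 (r = 0.91). AGPL2 was unlike the rest, with r from -0.78 with beta-amylase Solyc08g077530 to 0.07 with the other beta-amylase. These r values used TMM scaling only, and the order of the tissues in AGPL2 changed with the scaling, as given above. Outside the 8 genes, the identifiers most like GBSS1 were Solyc08g006930.3 and Solyc02g079950.3, each with r = 0.998, which the tables list without a name. Their mean CPM was 1272 and 2533 in leaves and 4.50 and 8.41 in red mesocarp.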

How the data were processed

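The counts per gene and the FPKM values were made by the authors and deposited as tables of 35288 genes for 10 libraries. HISAT2 is named in the submitters' processing notes, while its version, the counter, the genome build, the annotation and the handling of reads that fit several genes are not given in the sources used here. FPKM as deposited was used for levels and shares, and counts as deposited for tests. No column of per-sample values was left out. The series' design text lists green exocarp in place of green mesocarp, and groups were taken from the sample labels.

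Counts were filtered with filterByExpr (22801 genes kept), scaled by TMM and fitted with edgeR 4.0.16 in R 4.3.3 (quasi-likelihood, 5 tissue coefficients, 5 residual degrees of freedom). Tissue contrasts were tested, as was the interaction of fruit tissue with stage, with adjusted p under 0.05 as the threshold. Likeness used log2 CPM with a prior count of 2. Of an undetected gene, 3 counts were taken as the upper limit, 0.0692 to 0.101 CPM by library, which covers counting error only. The fit was tested on simulated counts with 200 changed genes.

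The genes named are the 8 members of the list and the 2 identifiers most like GBSS1. The members and lists were chosen with earlier results of these data known. Alternatives were DESeq2 1.42.0, its size factors, total counts, no filter, only the compared tissues, a replicate block, leaving out each library, and limma 3.58.1 on log2(FPKM + 1) and log2(FPKM + 0.1). RefSeq's gene table holds none of the Solyc identifiers, so other genes of starch metabolism, sequences and coordinates were not used here.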

Additional observations from a re-analysis of the deposited data

Results flagged for a closer look

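In 3 of the 8 genes the exocarp-to-mesocarp difference was not the same at the mature green and the red ripe stage, by the test of the difference itself in edgeR's model of all libraries. By the same test the difference was higher in red fruits for 10.9% of all genes tested and lower for 10.5%. Its log2 value was higher in red fruits by 1.84 for GBSS1 and by 0.64 for AGPL2. For beta-amylase Solyc08g077530 it changed by -1.40.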

How the results depend on the processing

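Of 1088 log2 values computed under the alternatives for 88 pairs of a gene and a comparison, 1021 kept their direction and their side of the threshold. The count of genes whose exocarp-to-mesocarp difference changed between stages was 3 in the report, 6 with limma on log2(FPKM + 1), and 3 to 5 when a library was left out. In the report, 10.9% of all genes tested changed toward exocarp and 10.5% toward mesocarp. The shares of all genes under the alternatives are not given here. The difference between stages of AGPL1, -1.20, turned to 1.69 on log2(FPKM + 1) and 0.18 on log2(FPKM + 0.1). That of AGPS1, -0.41, turned to 0.71 on log2(FPKM + 1). On log2(FPKM + 1) both passed with limma (adjusted p = 0.000146 and 0.0324), so both were added calls of opposite sign to the report. Beta-amylase Solyc08g007130 was also added there, at 1.24 (adjusted p = 0.00348), with the same sign as in the report. Red libraries held at most 0.522 FPKM of AGPL1 and 2.75 of AGPS1, to which 1 was added. AGPL2 in red over green mesocarp, 0.11, turned to -0.28 with total counts, -0.31 on log2(FPKM + 1) and -0.31 on log2(FPKM + 0.1), and in green mesocarp over leaves, -0.25, to 0.17, 0.18 and 0.18. Beta-amylase Solyc08g007130 in red over green exocarp, which did not pass, ranged from -1.65 to 1.44 when a library was left out, at 4 to 26 counts a library. Same-numbered libraries of different tissues did not deviate together (correlations from -0.05 to 0.06 over 10 pairs of tissues). The labels state no pairing, and such correlations cannot tell whether those libraries came from the same fruits. With a replicate block, 86 of the 88 calls were as in the report, GBSS1 in green exocarp against green mesocarp did not pass (-0.44, adjusted p = 0.0523) and AGPS1 in green mesocarp against leaves did (0.33, adjusted p = 0.0473). The causes were not tested.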
